A study of Bos taurus with 4 samples.

Results

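Milk fat synthesis was followed through 4 genes that code for enzymes of successive steps: ACACA, FASN, SCD and DGAT1. They were chosen by Ensembl identifier for their place in the pathway and not by their values, although with earlier results of these data known. They make up 4 of the 24616 gene rows of the table, and all 4 passed the filter on low values that left 12311 rows for testing. The pairing of the names with the identifiers comes from that choice (ENSBTAG00000015980 for FASN, ENSBTAG00000017567 for ACACA, ENSBTAG00000045728 for SCD and ENSBTAG00000026356 for DGAT1), because the table itself carries identifiers without names.

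The study sequenced RNA from mammary tissue and from lymphocytes of cattle, with 2 libraries of each source. The breed label reads "Hostein". Both mammary libraries came from females and both lymphocyte libraries from males, so source and sex cannot be told apart. No treatment, age or stage of lactation is given for either group, and the titles of the mammary libraries alone carry "dup", whose meaning is not given. Replicate numbers follow the order of deposition and pair nothing. Each title holds a different number, but the labels do not say whether these numbers name animals. The p-values therefore measure only how these libraries vary, which may be a technical matter in part.

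Milk fat is mostly triglyceride, and a lactating gland of a ruminant builds part of its fatty acids itself from acetate and butyrate carried in blood. Acetyl-CoA carboxylase alpha, coded by ACACA, makes the malonyl-CoA that commits carbon to this route, and fatty acid synthase, coded by FASN, joins those units into saturated chains. Stearoyl-CoA desaturase, coded by SCD, places a double bond in saturated chains, and diacylglycerol acyltransferase, coded by DGAT1, adds the last chain that completes a triglyceride. Other cells make fatty acids as well, for membranes and for storage, so transcripts of these genes are not confined to the gland.

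Levels are given in FPKM, the number of fragments corrected for transcript length and for the library's mapped fragments, so levels of different genes may be set side by side. The FPKM of all rows summed to 1384625 to 1536182 in the mammary libraries and to 828745 to 964825 in the lymphocyte libraries. The median tested row lay at 6.91 FPKM in mammary replicate 1 but at 2.57 FPKM in mammary replicate 2, and at 6.85 and 9.20 FPKM in the lymphocyte libraries. Most rows were thus low in mammary replicate 2, the library in which FASN, ACACA and SCD were high. The table holds no fragment counts, so depth is unknown and no counting interval is given. Markers of mammary epithelium, fat cells or blood cells could not be matched to identifiers, so the sources were not checked against them. In bulk tissue, more cells of a type and more RNA per cell cannot be told apart.

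Both genes of chain synthesis, ACACA and FASN, and the desaturase SCD were highest in 1 mammary library, while DGAT1 had a lower FPKM in both mammary libraries than in lymphocytes. In that library, mammary replicate 2, and in FPKM as deposited, SCD reached 234-fold, FASN 32.8-fold and ACACA 8.41-fold the mean of the lymphocyte libraries. In mammary replicate 1 the same genes were at 2.05-fold, 1.43-fold and 1.34-fold that mean. These sizes depended on the scaling: for SCD, FASN and ACACA in mammary replicate 2 they were 806-fold, 114-fold and 28.9-fold after median-of-ratios scaling and 153-fold, 21.5-fold and 5.48-fold with a common FPKM total, where FASN and ACACA in mammary replicate 1 were at 0.84 and 0.78 times the lymphocyte mean. DGAT1 as deposited was lower than the lymphocyte mean by a factor of 3.09 in mammary replicate 1 and 3.60 in mammary replicate 2. After median-of-ratios scaling the factors were 2.35 and 1.05, so its low level in mammary replicate 2 did not hold relative to other rows. FASN and SCD passed the test across all rows, ACACA and DGAT1 did not, and the values below show how far each difference rested on mammary replicate 2.

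**Figure D1:**
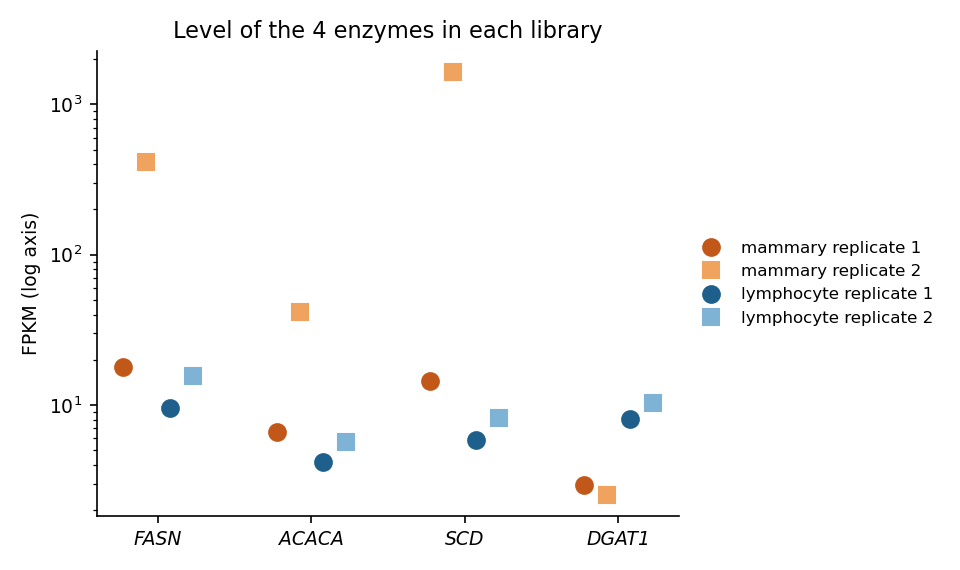
FPKM (vertical log axis) of FASN, ACACA, SCD and DGAT1, with 1 point per library; orange points are mammary and blue points lymphocyte libraries, circles replicate 1 and squares replicate 2. Mammary replicate 2 stands far above the other libraries for SCD (1643 FPKM), FASN (413) and ACACA (41.7), whereas both mammary points lie below both lymphocyte points for DGAT1.

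ACACA, the committing step, was at 6.63 FPKM in mammary replicate 1 and 41.7 FPKM in mammary replicate 2, and the lymphocyte replicates 1 and 2 had 4.20 and 5.72 FPKM. The groups did not overlap, but mammary replicate 1 was only 1.16-fold above the higher lymphocyte library. The mammary mean was 24.2 ± 24.8 FPKM (SD, n = 2) against 4.96 ± 1.07 FPKM (SD, n = 2) in lymphocytes. On the scale of log2(FPKM + 1), where all tests were made, the difference was 1.61 (SE 0.86), and it did not pass (limma's moderated test, adjusted p = 0.19). The mammary SD was larger than the mammary mean, so the difference in level does not exceed the spread between the mammary replicates.

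FASN, the chain-building enzyme, was at 18.0 FPKM in mammary replicate 1 and 413 FPKM in mammary replicate 2, while lymphocyte replicates 1 and 2 had 9.63 and 15.6 FPKM. Again the groups did not overlap, and again mammary replicate 1 was close to the lymphocytes, 1.15-fold above the higher of them. The mammary mean was 215 ± 279 FPKM (SD, n = 2) and the lymphocyte mean 12.6 ± 4.20 FPKM (SD, n = 2). The log2 difference was 2.74 (SE 0.87, limma adjusted p = 0.012), with both mammary libraries above both lymphocyte libraries. The mammary SD was again larger than the mean.

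SCD, the desaturase, showed the widest range of the 4 genes. Its level was 14.4 FPKM in mammary replicate 1, 1643 FPKM in mammary replicate 2, 5.82 FPKM in lymphocyte replicate 1 and 8.24 FPKM in lymphocyte replicate 2. Mammary replicate 1 was 1.75-fold above the higher lymphocyte library, a wider gap than for FASN or ACACA. The mammary mean was 829 ± 1152 FPKM (SD, n = 2), and the lymphocyte mean was 7.03 ± 1.71 FPKM (SD, n = 2). The log2 difference was 4.33 (SE 0.87, limma adjusted p = 2.7e-05), again with both mammary libraries on the higher side. As for FASN and ACACA, the mammary SD was larger than the mean.

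DGAT1, the enzyme of the last step, ran the opposite way. Its level was 2.96 FPKM in mammary replicate 1, 2.54 FPKM in mammary replicate 2, 8.06 FPKM in lymphocyte replicate 1 and 10.3 FPKM in lymphocyte replicate 2. The groups did not overlap, and the lower lymphocyte library was 2.72-fold above the higher mammary library. The mammary mean was 2.75 ± 0.30 FPKM (SD, n = 2) and the lymphocyte mean 9.16 ± 1.55 FPKM (SD, n = 2), so the gap in FPKM was larger than the spread of either group. The log2 difference was -1.43 (SE 0.83), and it did not pass (limma adjusted p = 0.24). That SE came from a spread pooled over rows and not from DGAT1's own replicates. On the same scale and as deposited, replicate 2 minus replicate 1 was -0.16 in mammary tissue and 0.31 in lymphocytes.

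These results are to be read against all rows. Of the 12311 rows tested, 19.2% were called, 8.54% as higher in mammary tissue and 10.7% as lower there. FASN and SCD are 2 of 4 genes called, both higher in mammary tissue. In FPKM as deposited, 13.7% of tested rows had both mammary values above both lymphocyte values, as FASN, ACACA and SCD did. In 52.7% of rows both were below, as in DGAT1. The median row was itself lower in mammary tissue by a log2 difference of -0.81. Relative to that row, FASN stood at 3.55, ACACA at 2.42, SCD at 5.14 and DGAT1 at -0.62. The position of DGAT1 below the lymphocytes was thus shared by most rows of the table, and 9564 rows had a more positive difference. By comparison, 106 rows had a more positive difference than SCD, 456 than FASN and 1087 than ACACA. After median-of-ratios scaling, both mammary values were above both lymphocyte values in 36.3% of rows and below them in 34.1%. Such a separation of the sources was then common in either direction.

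The small p-values of FASN and SCD rest on a spread pooled over rows. In the fit reported above, limma gave each row the spread typical of its level. The wide gap between the mammary replicates of these genes therefore did not enter their tests. After median-of-ratios scaling, limma weighed each gene's own spread together with the pooled spread. The log2 differences were then 3.77 for FASN (SE 2.00, limma adjusted p = 0.24) and 5.33 for SCD (SE 2.78, limma adjusted p = 0.23). None of the 4 genes passed in that fit, which called 12.8% of rows higher in mammary tissue and 7.77% lower. An exact permutation test of 2 libraries against 2 cannot give a two-sided p below 0.33. Both calls were also lost without the filter on low values, at limma adjusted p-values of 0.27 for FASN and 0.24 for SCD. That fit called 5 of 19337 rows, against 2363 of 12311 in the fit reported, so nearly all calls were lost.

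Each mammary library was then set against the lymphocytes alone. Without mammary replicate 2, the log2 differences were 0.52 for FASN, 0.37 for ACACA and 0.96 for SCD, with the median row at -0.32. Without mammary replicate 1 they were 4.96, 2.85 and 7.69, and all 3 passed (limma adjusted p = 0.010, 0.031 and 0.0022), in a fit that called 8.72% of all rows higher in mammary tissue and 22.4% lower. In both fits the lone mammary library was assumed to vary like the lymphocytes, so only the sizes of the differences are given. FASN and SCD kept their direction when either lymphocyte library was left out. Without lymphocyte replicates 1 and 2 in turn, the log2 differences were 2.42 and 3.06 for FASN and 4.11 and 4.55 for SCD. Neither gene passed in those fits, but few rows of the table did. DGAT1 depended little on any library as deposited, with log2 differences from -1.59 to -1.27 over the 4 fits that left 1 out.

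**Figure D2:**
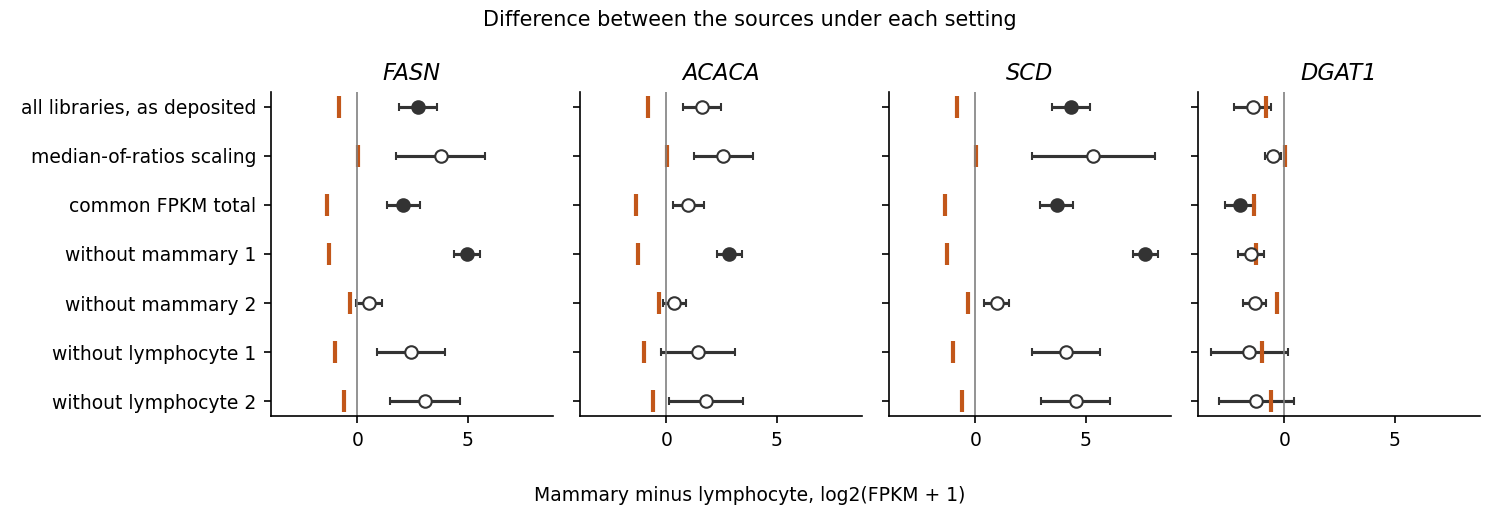
Mammary minus lymphocyte difference in log2(FPKM + 1) (horizontal axis) for each gene under 7 settings; circles are estimates with limma's standard error, filled where the adjusted p is below 0.05, and orange ticks mark the median of all tested rows in the same fit. FASN, ACACA and SCD lie to the right of the tick in every setting shown and shrink most without mammary replicate 2, whereas DGAT1 stays near the tick in several settings.

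Scaling changed how mammary replicate 1 compared with the lymphocytes. When every library was rescaled to the same FPKM total, FASN was at 13.8 and 352 in the mammary libraries and at 13.7 and 19.0 in the lymphocyte libraries, so the groups overlapped. ACACA overlapped as well under that scaling, with 5.09 in mammary replicate 1 against 5.98 and 6.98 in the lymphocyte libraries. SCD did not, with 11.1 in mammary replicate 1 against 8.28 and 10.1. On the same scale DGAT1 was at 2.27 and 2.16 in mammary tissue and at 11.5 and 12.5 in lymphocytes, and its log2 difference of -2.01 passed (SE 0.69, limma adjusted p = 0.011). Under that scaling 45.8% of all rows were called lower in mammary tissue and 8.72% higher. Both mammary values were below both lymphocyte values in 73.8% of rows and above them in 10.9%, and the median row was at -1.38.

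Median-of-ratios scaling, which sets libraries to a common typical row, moved DGAT1 the other way. It left DGAT1 at 2.69 in mammary replicate 1, 6.00 in mammary replicate 2, 6.53 in lymphocyte replicate 1 and 6.10 in lymphocyte replicate 2. Mammary replicate 2 then nearly met the lymphocytes while mammary replicate 1 stayed lower, and the log2 difference was -0.52 (SE 0.37, limma adjusted p = 0.36). It was -0.064 without mammary replicate 1 and -0.99 without mammary replicate 2. The agreement of the mammary replicates in DGAT1 therefore held for FPKM as deposited and not relative to other rows. Under this scaling 34.1% of rows had both mammary values below both lymphocyte values, and 36.3% had both above.

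Ranks within a library need no scaling. In mammary replicate 2, SCD was the row in position 32 from the top of the 12311 tested rows, FASN was in position 80 and ACACA in position 460. In mammary replicate 1 the positions were 3026 for SCD, 2369 for FASN and 6356 for ACACA. SCD, FASN and ACACA thus ranked far higher in mammary replicate 2, and in that library SCD lay 638-fold, FASN 160-fold and ACACA 16.2-fold above the median row. In mammary replicate 1, SCD and FASN lay 2.09-fold and 2.60-fold above the median row, while ACACA was at 0.96 times it.

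Between the sources the ranks separated as well. FASN exceeded 80.8% and 99.4% of tested rows in the mammary libraries and 60.6% and 66.6% in the lymphocyte libraries, replicate 1 first. SCD exceeded 75.4% and 99.7% in the mammary libraries and 45.0% and 46.6% in the lymphocyte libraries. ACACA exceeded 48.4% and 96.3% in the mammary libraries and 36.3% and 36.5% in the lymphocyte libraries. For these genes both mammary ranks lay above both lymphocyte ranks, as their FPKM as deposited did. With a common FPKM total, this did not hold for FASN and ACACA. How many other rows separate in rank was not counted. After median-of-ratios scaling, 36.3% of rows had both mammary values above both lymphocyte values, so such a separation is common. DGAT1 exceeded 22.2% and 49.4% of rows in the mammary libraries and 54.8% and 53.3% in the lymphocyte libraries. Its rank was near the middle in 3 libraries and low in mammary replicate 1.

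**Figure D3:**
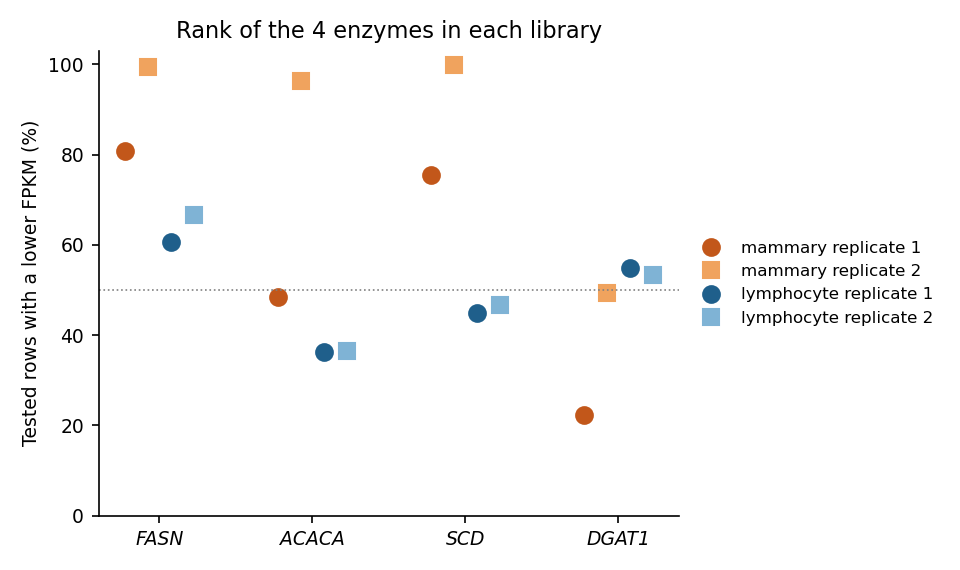
Percentage of the 12311 tested rows with a lower FPKM (vertical axis) for each gene, with 1 point per library coloured as in the plot of levels; the dotted line marks the middle row. SCD, FASN and ACACA are near the top in mammary replicate 2 (99.7%, 99.4% and 96.3%), and DGAT1 is lowest in mammary replicate 1 (22.2%).

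The mammary replicates differed in SCD, FASN and ACACA far more than in most rows, whereas in DGAT1 they lay closer together than in the median row. From mammary replicate 1 to 2, SCD was 114-fold, FASN 23.0-fold and ACACA 6.29-fold higher in FPKM, and DGAT1 was at 0.86 times its level. In log2(FPKM + 1) the differences were 6.73 for SCD, 4.45 for FASN, 2.48 for ACACA and -0.16 for DGAT1, while the median row stood at -1.05 with quartiles of -1.43 and -0.64. Only 2 of the 12311 rows had a more positive difference than SCD, 25 than FASN and 63 than ACACA, against 1209 for DGAT1. All 4 genes thus lay above the upper quartile, DGAT1 by the smallest margin.

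The lymphocyte replicates showed no such spread. From lymphocyte replicate 1 to 2 the log2 differences were 0.64 for FASN, 0.37 for ACACA, 0.44 for SCD and 0.31 for DGAT1, and the median row was at 0.40. ACACA, SCD and DGAT1 lay within the quartiles of all rows, 0.12 and 0.62, and FASN just above them. All 4 genes were higher in lymphocyte replicate 2, as the median row was.

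**Figure D4:**
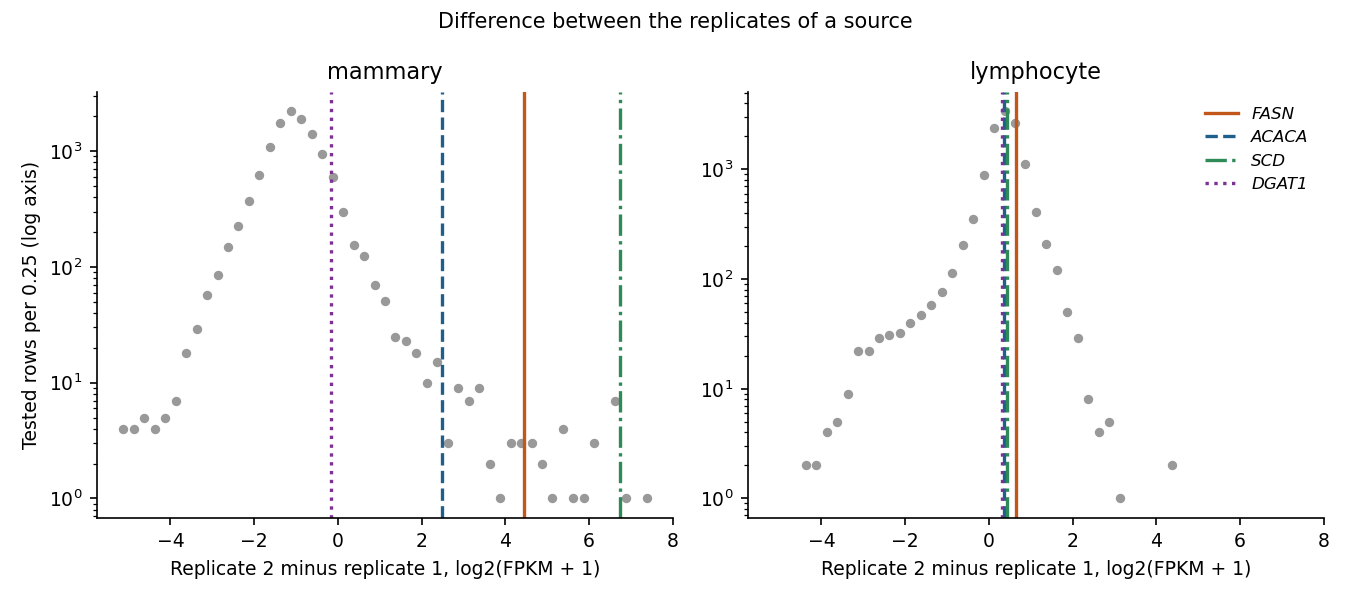
Number of tested rows per interval of 0.25 (grey points, vertical log axis) by the difference between replicates 2 and 1 in log2(FPKM + 1) (horizontal axis), for mammary tissue on the left and lymphocytes on the right; vertical lines mark the 4 genes. SCD (6.73), FASN (4.45) and ACACA (2.48) lie in the sparse right tail of the mammary panel, and all 4 genes lie in the dense centre of the lymphocyte panel.

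The excess in mammary replicate 2 was seen against every other library. SCD there was 114-fold, FASN 23.0-fold and ACACA 6.29-fold above the highest of the other 3 libraries, which was mammary replicate 1 in each case. Of the 12311 tested rows, 514 (4.18%) were highest in mammary replicate 2, and among all rows this lead was larger than that of SCD in 2, of FASN in 26 and of ACACA in 55. DGAT1 had its lowest FPKM in that library.

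The order of the genes changed between libraries. Both lymphocyte libraries had the order FASN, DGAT1, SCD, ACACA, from 9.63, 8.06 and 5.82 down to 4.20 FPKM in replicate 1 and from 15.6, 10.3 and 8.24 down to 5.72 FPKM in replicate 2. The order was thus the same within each library. Only between libraries, with all 4 genes higher in replicate 2, did the neighbours FASN and DGAT1 overlap, as did DGAT1 and SCD. SCD and ACACA were separated even so by a narrow margin, with 5.82 FPKM as the lowest SCD value and 5.72 FPKM as the highest ACACA value. Mammary replicate 1 had the order FASN, SCD, ACACA, DGAT1, and mammary replicate 2 the order SCD, FASN, ACACA, DGAT1. DGAT1 was thus second of the 4 genes in lymphocytes and last in mammary tissue.

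Ratios between genes of 1 library cancel any scaling of that library. DGAT1 was at 0.84 and 0.66 times FASN in lymphocyte replicates 1 and 2, at 0.16 times FASN in mammary replicate 1 and at 0.0062 times FASN in mammary replicate 2. The log2 ratio of DGAT1 to FASN averaged -4.97 ± 3.35 (SD, n = 2) in mammary tissue and -0.43 ± 0.25 (SD, n = 2) in lymphocytes. Both mammary libraries thus held less of the last enzyme's transcript per unit of fatty acid synthase transcript than either lymphocyte library. DGAT1 to ACACA separated likewise, with 0.45 and 0.061 in the mammary libraries, replicate 1 first, against 1.92 and 1.79 in the lymphocyte libraries. DGAT1 to SCD was at 0.21 and 0.0015 against 1.39 and 1.24. How often ratios between other rows separate the sources was not counted. After median-of-ratios scaling, single rows separated in either direction often, with both mammary values above both lymphocyte values in 36.3% and below them in 34.1%.

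SCD also stood higher relative to the genes of chain synthesis in the mammary libraries. SCD was at 0.80 and 3.98 times FASN in the mammary libraries, replicate 1 first, and at 0.60 and 0.53 times FASN in the lymphocyte libraries. SCD to ACACA was 2.18 and 39.4 in the mammary libraries against 1.38 and 1.44 in the lymphocyte libraries. Neither ratio overlapped between the sources, although mammary replicate 1 was close to the lymphocytes in both. The ratio within chain synthesis was alike in 3 of the 4 libraries: ACACA was at 0.37 times FASN in mammary replicate 1, at 0.44 and 0.37 in the lymphocyte libraries, and at 0.10 in mammary replicate 2. This was the 1 ratio of the 6 in which mammary replicate 1 lay within the range of the lymphocytes. The 6 ratios are built from the same 4 values of each library, so their separations are not independent observations. With 2 libraries against 2, none of the 6 ratios can reach a two-sided exact permutation p below 0.33.

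**Figure D5:**
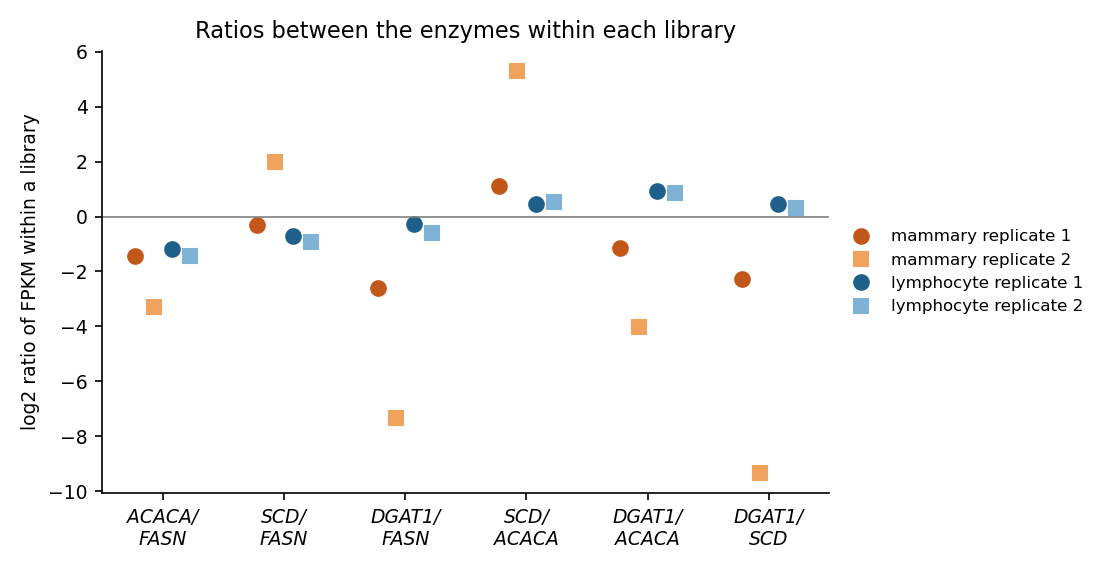
Log2 ratio of FPKM (vertical axis) for each of the 6 pairs of genes within each library, coloured as in the plot of levels; 0 marks equal levels. The lymphocyte libraries lie close together in every pair, DGAT1 lies below its partner in both mammary libraries, and mammary replicate 2 is the farthest from the lymphocytes in all 6 pairs.

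As a share of the summed FPKM of the 4 genes, SCD made up 78.2% in mammary replicate 2 and FASN 19.7%, with 1.99% for ACACA and 0.12% for DGAT1. In mammary replicate 1 the shares were 42.8% for FASN, 34.4% for SCD, 15.8% for ACACA and 7.05% for DGAT1. The lymphocyte libraries had 29.1% and 25.8% of this sum in DGAT1 and 21.0% and 20.7% in SCD. The sum itself was 42.0 FPKM in mammary replicate 1, close to the 39.8 FPKM of lymphocyte replicate 2, and 2100 FPKM in mammary replicate 2.

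Likeness of pattern was measured as the distance between the 4 values of log2(FPKM + 1) after centring each row on its mean. Seen from SCD, FASN was in position 19 and ACACA in position 80 of the 12310 other tested rows. Seen from FASN, ACACA was in position 35 and SCD in position 64. Seen from ACACA, FASN was in position 268 and SCD in position 9449, farther away than most rows, so the likeness did not hold from every side. DGAT1 was in position 6299 or later from each of the other genes. Among rows that are not enzymes of this set, the row most like ACACA was ENSBTAG00000015107, with 9.99 and 59.0 FPKM in the mammary libraries and 6.54 and 7.14 FPKM in the lymphocyte libraries, replicate 1 first (distance 0.21). The row most like DGAT1 was ENSBTAG00000048038, at 0.15 and 0.032 FPKM in the mammary libraries and at 1.67 and 2.39 FPKM in the lymphocyte libraries (distance 0.043). The distance grows with how widely a gene varies, so a gene of small range such as DGAT1 has close rows by construction, and at low FPKM the added 1 shrinks differences. These distances run over 4 libraries and are a description only.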

How the data were processed

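RNA of 4 libraries (TruSeq kit, read pairs of 150 bp, RNA integrity number 9.0, per the labels) was quantified by the authors as FPKM per gene, and the deposited FPKM were used unchanged. The submitters' processing notes name Trimmomatic 0.39, STAR, Cufflinks and the assembly UMD3.1. For their settings, the annotation and the use of strand, the entry is not given in the sources used here. Each of the 4 value columns carries the title of 1 sample. The 4 genes, the lists and the tests were chosen with earlier results of these data known. No identifier matched the RefSeq gene table (0 of 24616), which covers another assembly, so positions, sequences and the planned lists of other lipid and marker genes were not used here.

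Rows that reached 1 FPKM in 2 or more libraries were tested on log2(FPKM + 1) with limma 3.58.1 in R 4.3.3 (moderated test with a mean-variance trend, source as the only term, two-sided, Benjamini-Hochberg adjustment over all 12311 rows, threshold 0.05). Fold changes on that scale understate the change of low rows. The ratios of rows below 0.08 FPKM between replicates gathered at no single step (at most 5.64% and 6.18% within 0.015 on the log2 scale), so no depth was recovered. Of the rows most like each gene, the 2 nearest are named by identifier. The alternatives were other pseudocounts, filters and scalings, no trend, no pooling of the spread, and leaving out each library.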

Additional observations from a re-analysis of the deposited data

How the results depend on the processing

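All 4 genes kept their sign under the 17 alternatives run, and the within-library ratios to FASN under all 5 of theirs. Some of these values were very small, so their sign means little. DGAT1 was at -0.064 after median-of-ratios scaling without mammary replicate 1. The log2 ratio of ACACA to FASN differed by -0.12 without mammary replicate 2, against a replicate SD of 0.94. FASN and SCD each lost their call in 10 of the 17; ACACA gained one in 2 and DGAT1 in 1. The log2 differences of FASN and SCD at lost calls were 2.74 and 4.33 without the filter on low values, 3.54 and 4.68 after quantile normalization, and 3.77 and 5.33 after median-of-ratios scaling, with or without pooling of the spread. Median-of-ratios scaling without mammary replicate 2 gave 0.87 and 1.28, and without lymphocyte replicates 1 and 2 it gave 3.66 and 3.89 for FASN and 5.31 and 5.36 for SCD. The same scaling without mammary replicate 1 gave ACACA 4.50, a call, and the common FPKM total gave DGAT1 -2.01, a call. With FPKM as deposited, leaving out 1 library gave 0.52 to 4.96 for FASN, 0.37 to 2.85 for ACACA and 0.96 to 7.69 for SCD. In these fits the spread came from fewer libraries.

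The 2363 rows called in all became 5 without the filter (4 higher in mammary tissue), 1370 with a filter at 5 FPKM (383 higher), 6718 with a common FPKM total (1074 higher) and 2527 after median-of-ratios scaling (1570 higher), against 1051 higher in the fit reported. They became 46 after that scaling without pooling of the spread, 102 to 3828 without 1 library, and, after that scaling, 1520 without mammary replicate 2. Without lymphocyte replicate 1 or 2, limma then called 0 rows, with 2820 and 2967 at an unadjusted p below 0.05. Depth is unknown, so its limits on low levels such as those of DGAT1 cannot be stated.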
